A study of Mus musculus with 2 samples.

Results

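The genes described here are *Nfe2l2*, which encodes the transcription factor NRF2, its repressor *Keap1*, and 5 classical NRF2 target genes, *Hmox1*, *Nqo1*, *Srxn1*, *Sqstm1* and *G6pdx*. These 7 genes were chosen by name, for their place in the pathway, and each had 1 line in the deposited table of 18467 genes. The table compares growing mouse oocytes with and without KAT8, the acetyltransferase of histone H4 lysine 16. The WT library came from wild type C57BL/6 mice aged 2 weeks. The library called cKO came from mice of the same strain and age with both *Kat8* alleles flanked by loxP sites and with Cre recombinase driven by the *Gdf9* promoter, which in the ovary works in oocytes and not in the somatic cells around them. With 1 library per genotype no difference between genotypes could be tested, genotype and individual library cannot be told apart, and the sources used here do not give the number of animals behind each library.

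NRF2 activates genes that detoxify electrophiles and restore reduced glutathione, thioredoxin and NADPH. Without stress it is held by KEAP1, the substrate adaptor of a CUL3 ubiquitin ligase, and sent to the proteasome. Oxidants modify cysteines of KEAP1, NRF2 escapes, pairs with a small MAF protein and binds antioxidant response elements, whereas BACH1 pairs with the same MAF proteins and represses some of the same genes. Control of NRF2 is largely at the level of the protein, which mRNA levels do not measure.

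The values are FPKM, that is, numbers of fragments divided by transcript length and by sequencing depth, so levels of different genes can be set side by side. Differences are log2 ratios of the cKO over the WT library after adding 0.1 FPKM to each. A gene is called higher or lower when it had at least 1 FPKM in either library and differed at least 2-fold on that scale. *Kat8* stood at 165.6 FPKM in the WT and 0.985 FPKM in the cKO library. Oocyte markers were abundant in both libraries, and the 10 examined summed to 23700 and 18900 FPKM. Library totals are not given in the sources used here, so the depth is unknown. Among the 3503 genes with values above 0 but under 0.6 FPKM in both libraries, the commonest ratio of cKO over WT was 1.24, so the cKO library holds fewer fragments at a given FPKM and its low values are less precise.

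Of the 7 genes, *Nfe2l2* and *Hmox1* were called higher in the cKO library and 0 were called lower. Among all 11816 genes at 1 FPKM or more, 18.2% were called higher and 12.2% lower. *Keap1*, *Nqo1*, *Sqstm1* and *G6pdx* reached 1 FPKM and were not called, and *Srxn1* was under 1 FPKM in both libraries. The median log2 ratio of the 6 genes past the floor was -0.18, against 0.06 for all genes. So 3 of the 6 ratios were positive and 3 negative, and the genes shared no direction. With FPKM rescaled to TPM the median of all genes was 0.30, and 24.2% of all genes were called higher and 8.32% lower. Without the 50 most abundant genes in the library sizes these shares were 23.0% and 8.66%, with a median of 0.26.

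**Figure D1:**
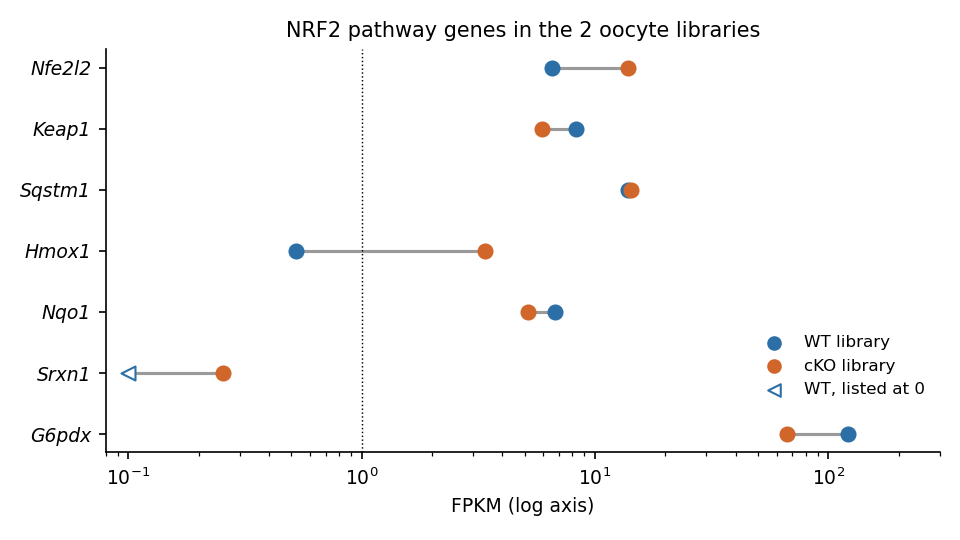
FPKM (log axis) of each of the 7 pathway genes in the WT library (blue) and the cKO library (orange), with 1 library per genotype and a dotted line at 1 FPKM. The open triangle marks *Srxn1*, listed at 0 in the WT library and drawn at the left edge; *Hmox1* shows the widest gap, from 0.522 to 3.36 FPKM, and *Sqstm1* nearly none, from 13.9 to 14.2 FPKM.

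To show where the sequence read by NRF2 lies near the starts of these genes, RefSeq promoter windows were searched on both strands. The windows held 300 bases (GRCm38.p6, 250 before to 50 after the start). The sequence sought was the core of the antioxidant response element, TGACNNNGC. Windows were at hand for 6 of the 7 genes, the exception being *Hmox1*. The core was found in 3 of them, *Nfe2l2*, *Srxn1* and *G6pdx*, and it was not found in the windows of *Keap1*, *Nqo1* and *Sqstm1*. Sequence outside the windows was not searched, so a gene without a match here may still hold the core farther from its start. Of all 32851 windows 12.4% hold it, and of all 27025 genes with a window 14.0% have a match. The AP-1 site TGANTCA, which begins with letters the core can share, was searched as well and is held by 7.81% of windows. The 3 windows are printed 5′ to 3′ along the gene, with every match to either motif in capitals.

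Nfe2l2, chr2:75704614-75704913, minus strand: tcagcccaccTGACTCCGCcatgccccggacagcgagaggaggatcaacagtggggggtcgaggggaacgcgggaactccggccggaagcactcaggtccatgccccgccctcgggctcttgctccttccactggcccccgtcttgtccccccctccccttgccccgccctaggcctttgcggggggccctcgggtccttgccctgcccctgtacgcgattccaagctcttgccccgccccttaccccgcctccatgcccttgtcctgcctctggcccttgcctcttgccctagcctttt

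Srxn1, chr2:152105274-152105573, plus strand: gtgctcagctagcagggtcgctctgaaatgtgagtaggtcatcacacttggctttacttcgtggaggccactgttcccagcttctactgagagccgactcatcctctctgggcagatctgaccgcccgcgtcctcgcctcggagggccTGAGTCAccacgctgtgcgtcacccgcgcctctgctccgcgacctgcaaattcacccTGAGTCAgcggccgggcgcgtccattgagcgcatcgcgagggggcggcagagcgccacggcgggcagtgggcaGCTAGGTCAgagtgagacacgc

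G6pdx, chrX:74428831-74429130, minus strand: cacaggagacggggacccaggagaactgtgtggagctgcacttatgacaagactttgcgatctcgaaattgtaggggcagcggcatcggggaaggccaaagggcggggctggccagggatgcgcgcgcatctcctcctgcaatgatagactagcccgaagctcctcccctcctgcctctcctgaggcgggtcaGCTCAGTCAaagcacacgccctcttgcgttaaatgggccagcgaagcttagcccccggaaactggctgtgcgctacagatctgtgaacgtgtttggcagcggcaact

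Positions are counted from the RefSeq start. In *Nfe2l2*, where that start lies 22 bases before the start of the gene in the GENCODE annotation, the match TGACTCCGC lies 240 to 232 bases before it. In *Srxn1* the match is on the other strand, where it reads TGACCTAGC, at bases 29 to 37 of the transcript. The other 2 runs of capitals are AP-1 sites (TGAGTCA), beginning 102 and 45 bases before the start. With the letters GC that follow it, the site at 45 bases reads TGAGTCAGC. That differs from the core sought only in having G for C after TGA, a form that was not searched. In *G6pdx* the match, also on the other strand, reads TGACTGAGC and lies 57 to 49 bases before the start, which is 314 bases inside the gene as GENCODE has it, so that the whole window lies within that gene. None of the 3 matches overlaps an AP-1 site. The genes with a match thus include 1 called higher, 1 not called with a negative ratio and 1 under the floor. Among further NRF2 targets 10 of the 34 with a window had a match (29.4%), and among further NRF2 regulators 3 of 15 (20.0%), against 14.0% of all 27025 genes with a window. The small lists of cell type markers varied as well, from 0 of 6 oocyte markers to 3 of 5 macrophage and blood cell markers. A match is a description of letters only, and binding of NRF2 was not measured.

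*Nfe2l2* (gene ID 18024; GRCm38 chromosome 2, 75675513 to 75704641, minus strand) stood at 6.53 FPKM in the WT and 13.9 FPKM in the cKO library. The ratio was 2.12-fold, a log2 ratio of 1.07, at percentile 83.2 of all genes at 1 FPKM or more. That lies just past the 2-fold rule, and with 1 FPKM added in place of 0.1 the log2 ratio was 0.98, just short of it. In the authors' deposited table its p-value was 0.0776 and its false discovery rate 0.512. *Nfe2l1*, whose product NRF1 controls proteasome genes, was the most abundant gene of the NRF2 family at 48.7 and 58.2 FPKM in the WT and cKO libraries. Its log2 ratio of 0.26 turned negative, to -0.25, after removal of the trend of log2 ratios with transcript length and GC content. *Nfe2l3*, for a related membrane-bound factor, stood at 0.996 and 1.98 FPKM, with a log2 ratio of 0.92.

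Of the 5 genes for the small MAF partners of NRF2 and the BACH repressors that compete with it, 4 were called higher in the cKO library and 0 lower, beside 18.2% and 12.2% of all genes. The median log2 ratio was 1.52. With the trend of length and GC content removed 2 of the 5 were called higher, beside 14.2% of all genes. Some markers of somatic cells stood the same way and others did not. Larger FPKM in the cKO library was seen for 10 of 10 theca and stroma markers, of which 4 reached 1 FPKM. It was seen for 6281 of all 11815 gene names at 1 FPKM or more. Of the 10 granulosa markers 5 had larger FPKM in the cKO library. Of these *Foxl2*, *Nr5a2* and *Kitl* were called higher, and 0 of the 10 were called lower. The summed FPKM of the macrophage and blood cell, red cell and endothelial markers was smaller in the cKO library. In the WT library most of each sum came from 1 gene. These were *C1qb* (39.5 of 40.6 FPKM), *Hba-a1* (51.5 of 58.8 FPKM) and *Pecam1* (9.78 of 12.5 FPKM). By count, 5 of 8 macrophage and blood cell, 2 of 5 red cell and 3 of 5 endothelial markers had larger FPKM in the cKO library. The part of somatic cells in these values was not tested. *Mafg*, the most abundant small MAF gene, stood at 17.9 FPKM in the WT and 51.6 FPKM in the cKO library, 2.88-fold higher. It is among the genes that the authors' deposited table lists as higher, with a false discovery rate of 5.27e-05. *Mafk*, a second small MAF gene, stood at 1.60 and 6.52 FPKM, 4.08-fold higher. *Maff*, the third, stood at 1.04 and 1.97 FPKM and was not called, with a log2 ratio of 0.86. The repressor genes were called higher as well: *Bach1*, which encodes the haem-sensing repressor of *Hmox1*, stood at 0.744 and 2.62 FPKM, and *Bach2*, its relative known from B lymphocytes, at 1.67 and 3.53 FPKM. After that trend was removed, *Mafg* had a log2 ratio of 0.97 and *Bach2* of 0.62, both short of the rule. *Bach2* was also short of it with 1 FPKM added and with median-of-ratios scaling, and its log2 ratio ran from 0.62 to 1.29 over the 6 alternatives.

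*Keap1* (gene ID 50868; GRCm38 chromosome 9, 21229730 to 21239361, minus strand) stood at 8.26 FPKM in the WT and 5.92 FPKM in the cKO library. The log2 ratio was -0.47, at percentile 27.0, within the 2-fold rule. The transcript is 58.0% G and C, and after removal of the length and GC trend the log2 ratio was -1.14, past the rule. Exons of the antisense gene *Gm16754* cover 10.9% of the exonic bases of *Keap1*. Counting by strand is not stated in the sources used here, so reads from that stretch cannot be assigned to either gene.

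Of all 8 genes of NRF2 degradation, *Keap1* included, 2 were called higher and 0 lower, beside 18.2% and 12.2% of all genes. Their median log2 ratio was 0.12. *Cul3*, the scaffold of the KEAP1 ligase, stood at 25.6 and 24.8 FPKM in the WT and cKO libraries, with a log2 ratio of -0.05 that was positive with TPM (0.20) and without the 50 most abundant genes (0.16). *Rbx1*, the RING subunit shared by cullin ligases, stood at 327 and 208 FPKM, with a log2 ratio of -0.65. On the second route, in which GSK3 phosphorylates NRF2 and a beta-TrCP ligase binds it, *Gsk3b* was called higher at 4.42 and 11.2 FPKM. The beta-TrCP genes were not called: *Btrc* stood at 19.4 and 14.6 FPKM and *Fbxw11* at 5.43 and 8.73 FPKM. *Syvn1*, which encodes the endoplasmic reticulum ligase HRD1, was called higher at 11.2 and 31.5 FPKM. Its deposited locus is shared with *Mrpl49*, and its log2 ratio of 1.49 was 0.88 with the length and GC trend removed. *Dcaf11* (WDR23), an adaptor of a CUL4 ligase, stood at 44.4 and 54.3 FPKM, with a log2 ratio of 0.29 that was -0.15 with that trend removed.

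*Sqstm1* (gene ID 18412; GRCm38 chromosome 11, 50199366 to 50210827, minus strand) encodes p62, an autophagy receptor that is induced by NRF2 and in turn draws KEAP1 away from it. It stood at 13.9 FPKM in the WT and 14.2 FPKM in the cKO library. The log2 ratio of 0.04 was the nearest to 0 of the 7 genes, and its sign was negative with median-of-ratios scaling (-0.02) and with the length and GC trend removed (-0.22). Exons of *Mrnip* on the opposite strand cover 17.3% of its exonic bases, and reads from that stretch cannot be assigned to either gene. The other genes whose products compete for KEAP1 were also not called: *Dpp3* stood at 2.09 and 2.78 FPKM and *Palb2*, better known for its part in homologous recombination, at 12.7 and 9.01 FPKM. The log2 ratio of *Dpp3*, 0.39, was -0.23 with the trend removed.

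Among the 6 of the 7 genes past the floor, the largest log2 ratio was that of *Hmox1* (gene ID 15368; GRCm38 chromosome 8, 75093621 to 75100589, plus strand), which encodes haem oxygenase 1, the enzyme that opens haem to biliverdin, iron and carbon monoxide. It stood at 0.522 FPKM in the WT and 3.36 FPKM in the cKO library. The ratio was 6.44-fold, and the log2 ratio of 2.48 lay at percentile 97.5 of all genes at 1 FPKM or more. *Hmox1* was called higher under each of 6 other pseudocounts, scalings and trend settings, with log2 ratios from 1.52 to 2.78, but its level does not reach a floor of 5 FPKM. It stayed at a low level: in the cKO library *Nfe2l2* itself was at 13.9 FPKM and *G6pdx* at 66.5 FPKM. In the authors' deposited table the p-value of *Hmox1* was 0.186 and its false discovery rate 0.914. *Hmox2*, the constitutive haem oxygenase gene, named after its values were seen, stood at 27.7 and 15.9 FPKM, with a log2 ratio of -0.80, so it was the more abundant of the pair in both libraries.

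Macrophages and other somatic cells of the ovary also express *Hmox1*. Of the 10 theca and stroma markers examined, 10 had larger FPKM in the cKO library, beside 6281 of all 11815 gene names at 1 FPKM or more. The summed level of the 10 was 2.36 FPKM in the WT and 12.5 FPKM in the cKO library. Only 4 of the 10 reached 1 FPKM. The log2 ratios of the 10 ran from 0.87 for *Pdgfra* (0.13 and 0.31 FPKM) to 2.78 for *Cyp11a1* (0.317 and 2.77 FPKM). That of *Hmox1* was 2.48, and *Lum* was listed at 0 in the WT library. Of the 8 macrophage and blood cell markers in the table, 5 had larger FPKM in the cKO library, and 1 of the 8 reached 1 FPKM. *Ptprc*, which encodes the leukocyte antigen CD45, was listed at 0 in the WT and stood at 0.0340 FPKM in the cKO library. *C1qa*, also listed at 0 in the WT, stood at 0.522 FPKM, and the macrophage receptor gene *Csf1r* at 0.0416 and 0.0771 FPKM. Smaller FPKM in the cKO library was seen for *Cd68* (0.572 and 0.531 FPKM), *Cd14* (0.127 and 0.0802 FPKM) and *C1qb*. The summed level of that list was 40.6 and 13.9 FPKM, of which *C1qb* made up 39.5 and 12.3 FPKM. The 10 granulosa markers summed to 103 and 113 FPKM, of which *Inha* made up 67.3 and 62.7 FPKM. Of these 10 markers 5 had larger FPKM in the cKO library. In all 3 were called higher and 0 lower, beside 18.2% and 12.2% of all genes. *Foxl2* stood at 3.09 and 8.34 FPKM, *Nr5a2* at 6.10 and 16.8 FPKM and *Kitl* at 1.07 and 3.44 FPKM. Besides *Inha*, smaller FPKM in the cKO library was seen for *Cyp19a1* (6.70 and 5.49 FPKM) and *Hsd17b1* (6.48 and 3.53 FPKM). The same held for *Fst* (5.19 and 3.47 FPKM) and *Amh* (0.288 and 0.121 FPKM). The 5 endothelial markers in the table summed to 12.5 and 11.4 FPKM, of which *Pecam1* made up 9.78 and 8.14 FPKM. Of the 5, 3 had larger FPKM in the cKO library, and 2 of the 5 reached 1 FPKM. *Cdh5*, which encodes VE-cadherin, stood at 0.0361 and 0.527 FPKM and *Tek* at 2.33 and 2.06 FPKM. The 5 red cell markers in the table summed to 58.8 and 27.2 FPKM, of which *Hba-a1* made up 51.5 FPKM in the WT library. Of these 5 markers, 2 had larger FPKM in the cKO library. One was *Hba-a2* (7.07 and 11.7 FPKM), which shares its deposited locus with *Hba-a1*. The part of other cells in the level of *Hmox1* was not tested. In bulk RNA, a change in the number of cells of a type and a change in RNA per cell cannot be told apart.

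**Figure D2:**
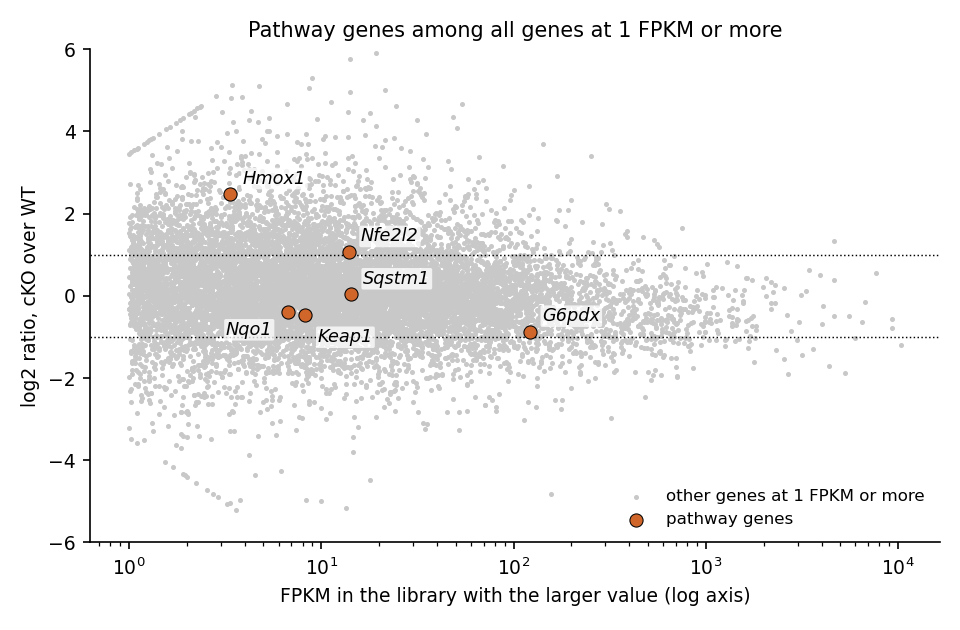
Log2 ratio of the cKO over the WT library against the FPKM in the library with the larger value (log axis), for all genes at 1 FPKM or more (grey; 15 genes beyond the axis at 6 are not drawn) and the 6 pathway genes past that floor (orange), with dotted lines at the 2-fold rule. *Hmox1*, at 2.48, stands at percentile 97.5 of all genes at 1 FPKM or more. *Nfe2l2* stands just past the upper line, and *G6pdx*, the most abundant of the 6, just inside the lower line.

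Of the 7 genes of haem and iron handling, *Hmox1* included, 2 were called higher and 2 lower, beside 18.2% and 12.2% of all genes. The median log2 ratio was -0.37. With TPM, or without the 50 most abundant genes, 0 of them were called lower, beside 8.32% and 8.66% of all genes. *Blvra*, which encodes the biliverdin reductase acting after haem oxygenase, stood at 12.0 FPKM in the WT and 5.61 FPKM in the cKO library, a log2 ratio of -1.08 that was inside the rule in 4 of 6 alternatives. *Fth1*, the ferritin heavy chain gene and the most abundant of the list, stood at 285 and 132 FPKM, 2.15-fold lower, and the authors' deposited table lists it as lower. Its log2 ratio of -1.11 was short of the rule with TPM (-0.86) and without the 50 most abundant genes (-0.90). *Fth1* has near-identical pseudogenes, which makes the assignment of its reads uncertain. *Slc40a1*, for the iron exporter ferroportin, was called higher at 0.266 and 1.08 FPKM, a log2 ratio of 1.69 that was 0.72, short of the rule, with 1 FPKM added. The ferritin light chain gene *Ftl1*, named after its values were seen, stood at 123 and 71.9 FPKM, with a log2 ratio of -0.77.

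*Nqo1* (gene ID 18104; GRCm38 chromosome 8, 107388225 to 107403206, minus strand) encodes the NAD(P)H quinone reductase that is often used as a readout of NRF2 activity. It stood at 6.75 FPKM in the WT and 5.14 FPKM in the cKO library. The log2 ratio of -0.39, at percentile 30.5, was within the rule in each of the 6 alternatives, which ran from -0.45 to -0.08. In direction it therefore stood opposite to *Hmox1* and *Nfe2l2*. *Nqo2*, for a related reductase that does not use NAD(P)H efficiently, was named after its values were seen and stood at 0.352 and 1.26 FPKM.

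The wider list of quinone reduction and conjugation genes was mixed. Of its 17 genes 12 reached 1 FPKM, with a median log2 ratio of -0.39. Of the 12, 2 were called higher and 2 lower, beside 18.2% and 12.2% of all genes. *Gsta4*, the glutathione transferase gene for lipid aldehydes and the most abundant of the list, stood at 133 and 83.0 FPKM in the WT and cKO libraries and was not called. The glutathione transferase genes *Gstm1* (2.87 and 7.44 FPKM) and *Gstm2* (3.55 and 8.72 FPKM) were called higher; they are close relatives in 1 cluster, so the assignment of reads between them is uncertain. The aldo-keto reductase gene *Akr1b8* (25.1 and 10.7 FPKM) and the carbonyl reductase gene *Cbr3* (2.69 and 0.802 FPKM) were called lower. The log2 ratio of *Akr1b8*, -1.22, was inside the rule with TPM, at -0.98.

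**Figure D3:**
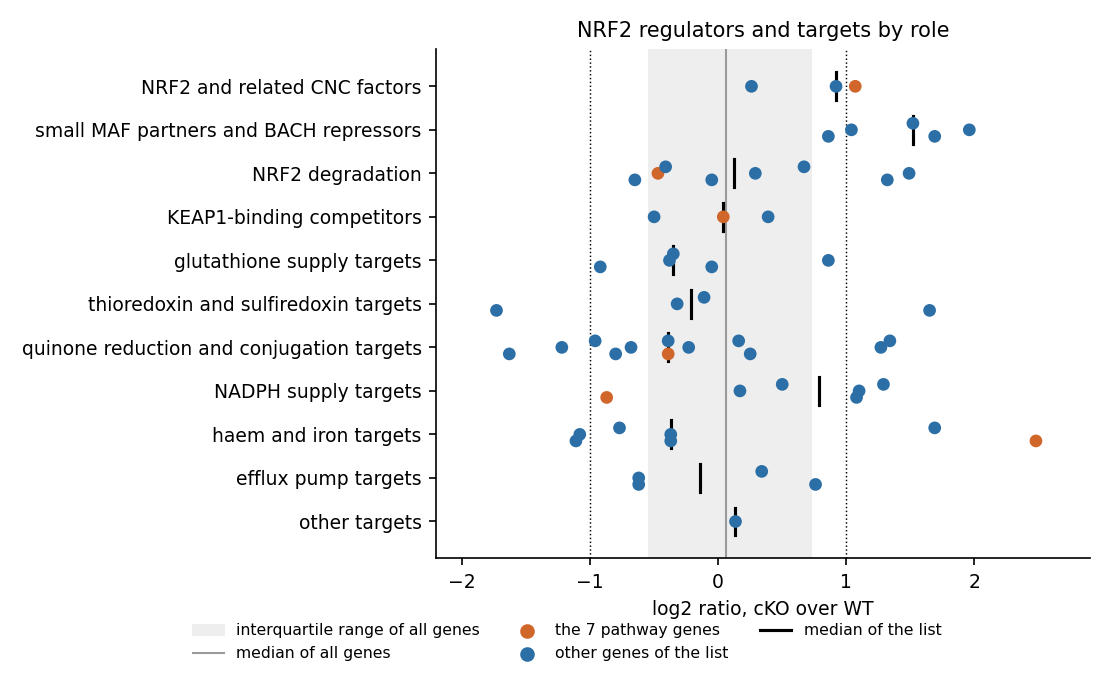
Log2 ratio of the cKO over the WT library for each gene at 1 FPKM or more in the 11 lists of NRF2 regulators and targets, with the 7 pathway genes in orange where they pass the floor, the median of each list as a black bar, and the interquartile range of all genes (-0.54 to 0.73) shaded. The small MAF and BACH list lies wholly to the right of the median of all genes, at 0.06, whereas most target lists spread over both sides; dotted lines mark the 2-fold rule.

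*Srxn1* (gene ID 76650; GRCm38 chromosome 2, 152105516 to 152111376, plus strand) encodes sulfiredoxin, which reactivates peroxiredoxins whose cysteine has been oxidised too far. It was listed at 0 in the WT library and stood at 0.255 FPKM in the cKO library, under the floor in both, so no fold is given and it was not called. With 0.1 FPKM added its log2 ratio was 1.83, which ran from 0.33 to 4.73 with 1 and 0.01 FPKM added. Among the other 4 genes of the thioredoxin and sulfiredoxin list, *Prdx1*, an abundant peroxiredoxin that sulfiredoxin repairs, stood at 704 and 211 FPKM, 3.33-fold lower, and the authors' deposited table lists it as lower. *Prdx1* shares its deposited locus with *AV051173*. *Prdx6*, for the peroxiredoxin that uses glutathione, was called higher at 4.57 and 14.6 FPKM. *Txnrd1*, for the cytosolic thioredoxin reductase (29.3 and 23.5 FPKM), and *Txn1*, for thioredoxin itself (59.9 and 55.3 FPKM), were not called; these were named after their values were seen.

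Genes that supply glutathione, a further group of classical targets, were not called in either direction, beside 18.2% higher and 12.2% lower of all genes. Of the 6 genes 5 reached 1 FPKM, and their median log2 ratio was -0.35. *Gclm*, the modifier subunit of glutamate-cysteine ligase and the most abundant of the list, stood at 23.9 FPKM in the WT and 18.4 FPKM in the cKO library. The catalytic subunit gene *Gclc*, named after its values were seen, stood at 2.00 and 3.72 FPKM, with a log2 ratio of 0.86. The cystine importer gene *Slc7a11*, named in the same way, stood at 15.2 and 7.99 FPKM, with a log2 ratio of -0.92.

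*G6pdx* (gene ID 14381; GRCm38 chromosome X, 74409483 to 74429194, minus strand) encodes glucose-6-phosphate dehydrogenase, the first enzyme of the pentose phosphate pathway and a main source of cytosolic NADPH in oocytes. It was the most abundant of the 7 genes, at 121.5 FPKM in the WT and 66.5 FPKM in the cKO library. That is 1.83-fold lower, a log2 ratio of -0.87 at percentile 15.1, inside the 2-fold rule. With the length and GC trend removed it was -1.04, past the rule, and with TPM it was -0.62. In the authors' deposited table its false discovery rate was 0.0541, the lowest of the 7 genes. The deposited locus of *G6pdx* is that of *Ikbkg*, which encodes NEMO and encloses it on the opposite strand, and exons of *Ikbkg* cover 13.6% of the exonic bases of *G6pdx*. *Ikbkg*, named after its values were seen, stood the other way, at 1.20 and 4.83 FPKM. The retrogene copy *G6pd2*, also named so, stood at 0.305 and 0.376 FPKM, far below *G6pdx* in both libraries.

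Of the 6 genes of NADPH supply, *G6pdx* included, 3 were called higher and 0 lower, beside 18.2% and 12.2% of all genes, and the median log2 ratio was 0.79. The 3 were *Pgd*, *Taldo1* and *Tkt*, the later enzymes of the same pathway that the list holds. *Pgd*, for the dehydrogenase that makes the second NADPH, stood at 10.2 FPKM in the WT and 21.9 FPKM in the cKO library, 2.16-fold higher. *Taldo1*, for transaldolase, stood at 79.3 and 194.5 FPKM, 2.45-fold higher. *Tkt*, for transketolase, stood at 15.6 and 33.1 FPKM, 2.12-fold higher, with a log2 ratio of 0.74 once the length and GC trend was removed. The authors' deposited table lists *Taldo1* and *Tkt* as higher. Malic enzyme (*Me1*, 104 and 117 FPKM) and isocitrate dehydrogenase 1 (*Idh1*, 8.11 and 11.5 FPKM), which make NADPH outside that pathway and were named after their values were seen, were not called.

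Over the 44 targets outside the 7 genes, 36 reached 1 FPKM, of which 7 were called higher and 5 lower, beside 18.2% and 12.2% of all genes, which is close to that background. Their median log2 ratio was -0.27, against 0.06 for all genes. The other 24 of the 36 were within the rule. Of the 16 regulators other than *Nfe2l2*, *Keap1* and *Sqstm1*, each past the floor, 6 were called higher and 0 lower, with a median of 0.77. The efflux pump genes were not called, and *Abcb6*, the most abundant of them, stood at 18.2 and 11.8 FPKM. *Osgin1*, an NRF2 target named for its growth-inhibiting product, stood at 18.3 and 20.04 FPKM.

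**Figure D4:**
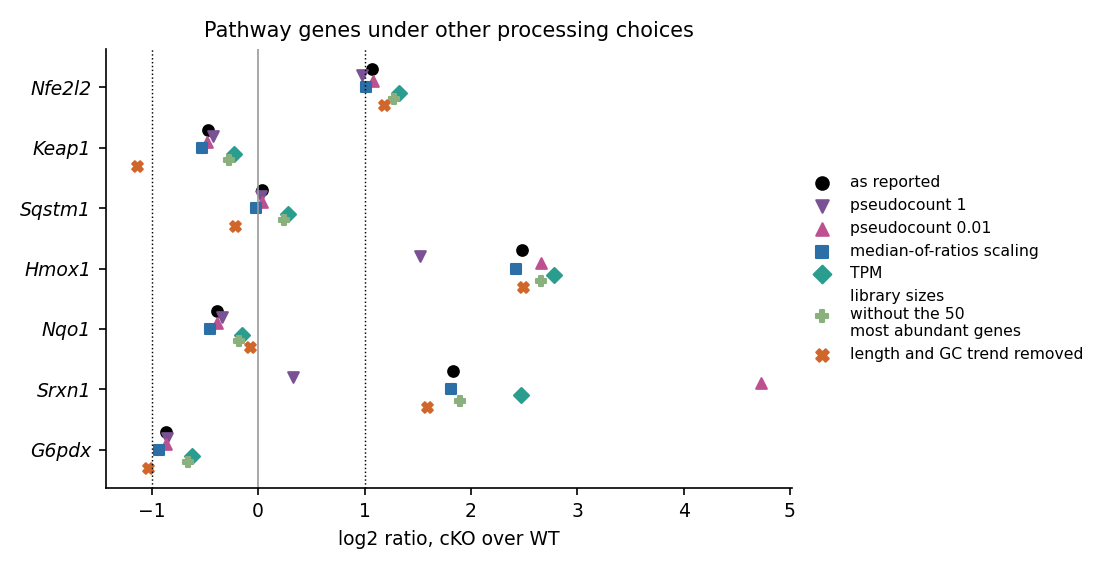
Log2 ratio of the cKO over the WT library of each of the 7 pathway genes as reported (black) and under 6 other processing choices, with dotted lines at the 2-fold rule. *Hmox1* stays right of the line throughout (1.52 to 2.78) and *Nqo1* stays between the lines (-0.45 to -0.08), whereas *Nfe2l2* (0.98 to 1.32), *Keap1* (-1.14 to -0.23) and *G6pdx* (-1.04 to -0.62) each cross a line once. *Srxn1*, under the floor, runs from 0.33 to 4.73 and is left of the line with a pseudocount of 1.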

How the data were processed

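RNA was extracted with Trizol from oocytes and made into libraries with an Illumina TruSeq kit, per the labels' protocols. The submitters' processing notes name Bowtie 0.12.2 and build mm10; the counting method, annotation, strand setting and test are not given in the sources used here. Per the file headers, the authors deposited FPKM per gene and library, the fold change as their ratio, and a p-value with a false discovery rate; 0 FPKM is written as 1e-05. The KO column was taken as the cKO and the NC column, by elimination, as the WT library.

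The deposited p-values take the same value for genes whose FPKM share their whole-number parts: of 990 such pairs held by 2 or more genes, 989 have a single p-value. They compare 2 libraries, not genotypes.

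Log2 ratios, calls and percentiles were computed with Python 3.11.15, pandas 2.3.3 and numpy 2.4.6. The code for the calls and trend removal was run on simulated data. Changes were planted there only in genes at 5 FPKM or more, so that run does not measure how reliable calls are at low levels. Transcript length and GC content came from GENCODE M21 (GRCm38), matched by gene ID for 93.9% of genes, and their trend was a quadratic least-squares fit. The genes named are *Kat8*, the 7 genes, the expressed regulators, and of each target list the called and the most abundant genes. Besides those marked above, deposited loci are shared by *Gsk3b* with *BC031361*, *Bach2* with *BC024582*, *Hmox2* with *Cdip1* and *Txnrd1* with *Eid3*. *Kat8* shares its deposited locus with *Prss8*, *Me1* with *A330041J22Rik*, and *Nqo2* with *1110046J04Rik* and *Serpinb6a*. The members, 11 pathway lists and 6 marker lists were chosen with earlier results of these data known. Alternatives were other pseudocounts (1 and 0.01), floors (5 FPKM, or none), rules of size (1.5-fold and 3-fold), 3 other scalings and trend removal.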

Additional observations from a re-analysis of the deposited data

How the results depend on the processing

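No paired analysis was possible because each genotype has 1 library. Of the 42 alternative values of the 7 genes, 37 kept their direction and their call. They include those of *Srxn1*, which was under the floor of 1 FPKM and so not called at any size while that floor was kept. Its log2 ratio of 1.83 was inside the 2-fold rule with a pseudocount of 1 (0.33). The exceptions were *Nfe2l2* with a pseudocount of 1 (0.98), *Keap1* (-1.14) and *G6pdx* (-1.04) with the length and GC trend removed, and *Sqstm1*, whose ratio near 0 became negative with median-of-ratios scaling (-0.02) and with the trend removed (-0.22). The count of the 7 genes called higher, 2, was 1 with a pseudocount of 1, with a floor of 5 FPKM and with a 3-fold rule. With no floor it was 3. The count called lower, 0, was 2 with the trend removed and 1 with a 1.5-fold rule. Beside these, the shares of all genes called higher and lower were 12.7% and 8.68% with a pseudocount of 1. They were 15.5% and 11.7% with a floor of 5 FPKM, and 18.4% and 11.1% with none. With the trend removed they were 14.2% and 13.1%. A 1.5-fold rule gave 29.1% and 23.2%, and a 3-fold rule 8.62% and 4.49%. With TPM they were 24.2% and 8.32%, and without the 50 most abundant genes 23.0% and 8.66%. Among the other regulators, 6 were called higher, but 3 with the trend removed and 2 with a 3-fold rule; 0 were called lower, but 1 with a 1.5-fold rule. Among the other targets, 7 were called higher, but 2 with a 3-fold rule; 5 were called lower, but 2 with TPM, 3 without the 50 most abundant genes, 12 with a 1.5-fold rule and 2 with a 3-fold rule. Signs also changed for *Cul3* with TPM (0.20) and without the 50 most abundant genes (0.16), and with the trend removed for *Dcaf11* (-0.15), *Dpp3* (-0.23) and *Nfe2l1* (-0.25). The response element was found in 3 windows, and with an A required after the core in 0. Looser or stricter rules change counts by construction; the cause of the other changes was not tested. *Srxn1* was under 1 FPKM in both libraries and *Hmox1* in the WT library; as the depth is unknown, the precision of these values cannot be given.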
